A study of Mus musculus with 2 samples.

Results

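The 10 genes described here are direct transcriptional targets of p53 that feed back on p53 or restrain growth and survival. They are Mdm2, Ccng1, Sesn1, Sesn2, Phlda3, Zmat3, Trp53inp1, Aen, Eda2r and Perp, out of 22180 genes measured. They were named as a list, and each was read from a probe set annotated with that gene symbol and no other, with the brightest kept where a gene had several. Every one of the 10 was found, each with 1 such probe set. Livers came from male mice of the inbred strain C57BL/6 that were 9 weeks old. The irradiated group was given 1 whole-body exposure to gamma rays, 6 Gy at 0.81 Gy per minute, when 4 weeks old, and its liver was taken 5 weeks afterwards. The control group had no radiation treatment. Each group was 1 array, and whether its RNA came from a single mouse or from pooled mice is not stated in the sources used here.

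p53 is a transcription factor held at low abundance in unstressed cells, because the ubiquitin ligase encoded by its own target Mdm2 marks it for destruction. Ionizing radiation breaks DNA, the kinases ATM and ATR signal the breaks, p53 escapes that destruction and its targets are transcribed. Among those targets are brakes on the cell cycle and on mTORC1 signalling, inducers of cell death, and genes that switch p53 off again. In liver most hepatocytes are quiescent, and p53 targets in this tissue are also known to answer to fasting, nutrient and endoplasmic reticulum stress.

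The p53 protein binds DNA through paired copies of a 10-letter half-site. RefSeq promoter windows of build GRCm38.p6, running from 250 bases before to 50 bases after a transcription start, were matched for 7 of the 10 genes, with 9 windows among them because Aen and Sesn1 have 2 starts each. The consensus half-site reads the same on both strands and was searched with no mismatch. It was present for 4 of the 7 genes (Mdm2, Ccng1, Aen and Sesn1), and in 9.55% of 27025 genes with a window. A match is a description of letters, binding was not measured, and many p53 sites lie outside windows of this length. The 10 genes were listed as known p53 targets, so the share among them is no independent evidence. The sequences that carry the half-site are shown because p53 acts on its targets through such sites, with the half-site in capitals and each read 5′ to 3′ on the strand of the gene. For the pair that acts back on p53, the 250 bases before the start are given:
Mdm2, chr10:117710759-117711008, minus strand: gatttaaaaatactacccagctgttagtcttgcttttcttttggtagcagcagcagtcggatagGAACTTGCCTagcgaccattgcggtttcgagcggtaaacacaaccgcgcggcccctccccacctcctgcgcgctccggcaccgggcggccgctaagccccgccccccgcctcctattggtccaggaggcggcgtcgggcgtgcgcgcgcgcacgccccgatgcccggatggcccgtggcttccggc
Ccng1, chr11:40755287-40755536, minus strand: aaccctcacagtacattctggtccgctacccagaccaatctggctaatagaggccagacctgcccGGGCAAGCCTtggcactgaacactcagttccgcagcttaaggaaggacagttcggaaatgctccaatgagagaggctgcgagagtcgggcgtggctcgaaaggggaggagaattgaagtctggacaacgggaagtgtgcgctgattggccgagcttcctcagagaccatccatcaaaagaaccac
For the other two, the half-site is given with 10 bases on each side:
Aen, chr7:78895927-78895956, plus strand: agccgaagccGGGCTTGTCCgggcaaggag
Sesn1, chr10:41887256-41887285, plus strand: cttggccttcAAGCTTGTTTttgctggcct
Cdkn1a, the p53 target with the largest difference on these arrays, is shown for comparison, with a pair of adjoining half-sites in capitals, the second with 1 mismatch:
Cdkn1a, chr17:29090918-29090957, plus strand: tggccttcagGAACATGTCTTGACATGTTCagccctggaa

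The Aen half-site begins 121 bases before the second start of that gene and lies just after its first start, and the Sesn1 half-site lies before the second of its starts. The Cdkn1a pair shown lies before 1 start of that gene, and the window of a further start had no half-site. The first half-site of the pair shown also formed a pair without mismatch, with a half-site before it at a spacer of 12 bases. In the Ccng1 window the 10 bases just before the half-site formed a second one with 1 mismatch and a spacer of 0 bases, so the gene carried a pair. Pairs with up to 1 mismatch in 1 half-site and a spacer of at most 13 bases, a search added after the windows had been seen, occurred for 1 of the 7 genes and for 1.24% of all genes with a window. With no mismatch allowed, pairs occurred for 0 of the 7 and for 0.0740% of all. Phlda3, Sesn2 and Eda2r had windows without the half-site, which says only that these letters are absent from those windows.

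Values below are log2 RMA values, in which the background is subtracted and the arrays are normalized to each other, and differences are irradiated minus control on that scale. The log base is read from the range of the values, 1.47 to 13.9 on the irradiated array and 1.46 to 13.9 on the control array. A gene was called expressed if at least 1 of its values was at or above 6.06, the floor, which is the median over all probe sets and arrays and so a rank, not a measured background. Of the 10 genes, 9 were expressed, among 13689 expressed genes in all. With 1 array per group there is no replicate, no error and no test, so each difference describes these 2 arrays only. Among expressed genes the central 50% of differences lay between -0.11 and 0.10, and the central 95% between -0.37 and 0.42. For 419 genes with 2 expressed probe sets, the differences of both probe sets lay a median of 0.161 apart, and up to 0.523 apart at the 95th percentile.

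None of the 9 expressed targets differed by as much as 0.32 log2 units, between the irradiated and the control liver. At least 1.5-fold higher were 0 of 9, against 1.14% of all expressed genes, and at least 1.5-fold lower were 0 of 9, against 0.65%. At 0.32 log2 units the counts were also 0 of 9 in each direction, against 4.65% of expressed genes higher and 3.75% lower. Above 0 were 6 of 9, against 48.5% of expressed genes. The median difference was 0.08 over the 9, against -0.00 over all expressed genes, and the median size of a difference regardless of sign was 0.145 against 0.105. All 9 lay inside the central 95% of expressed genes. With shares of expressed genes this small, counts of 0 among 9 are near the background and are not a result about the 9. Since this is whole tissue, fewer cells of a type and less RNA per cell cannot be told apart.

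**Figure D1:**
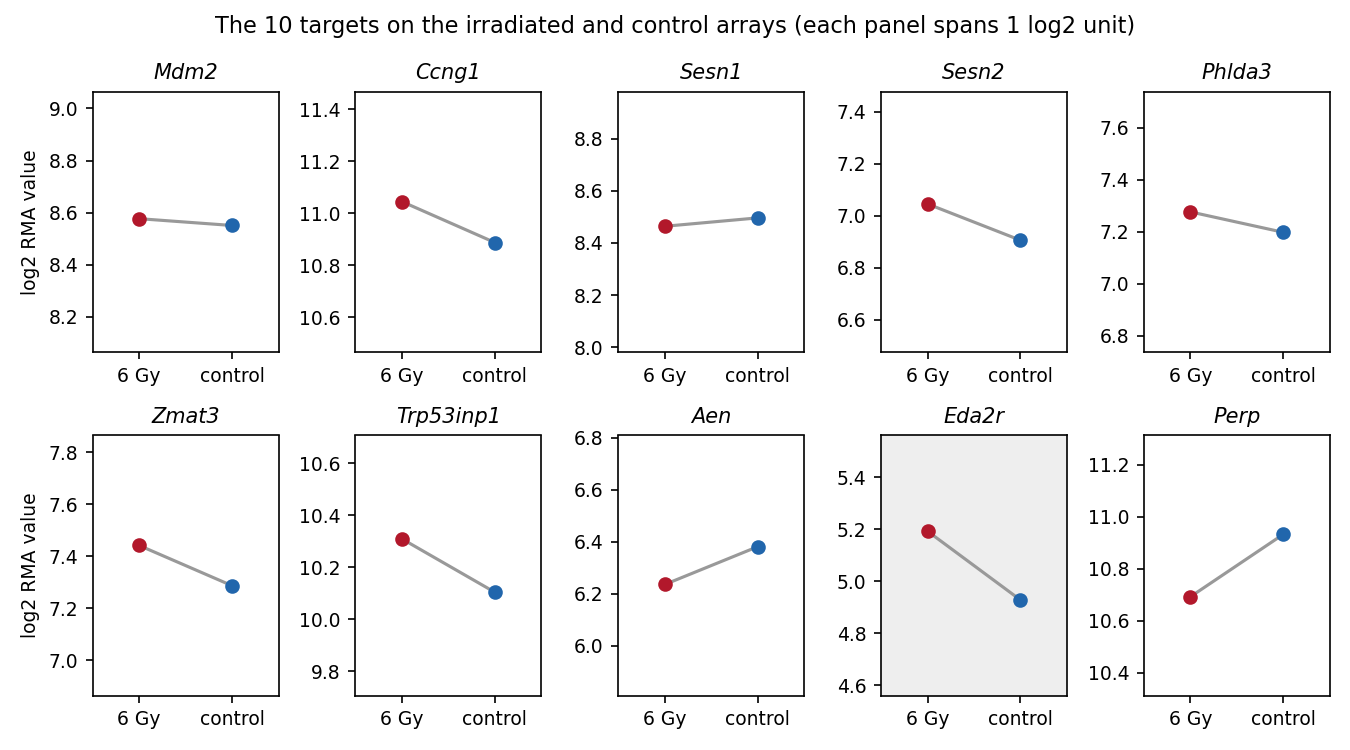
Log2 RMA value (vertical axis) of each of the 10 genes on the irradiated array (6 Gy, red, left) and the control array (blue, right), 1 array per group and therefore no error bars. Each panel spans 1 log2 unit around its own gene; the grey panel marks Eda2r, below the expression floor of 6.06 on both arrays, and the steepest line among the others is that of Perp.

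The genes that act back on p53 were Mdm2 and Ccng1. Mdm2 encodes the ligase that degrades p53 and is the best known p53 feedback gene. It had a value of 8.58 in irradiated liver and 8.55 in control liver, a difference of 0.03 or 1.02-fold. Of all expressed genes, 86.0% were at least as far from 0, so Mdm2 was among the genes that differed least. Ccng1 encodes cyclin G1, which recruits the phosphatase PP2A to Mdm2 and so affects p53 stability. It had a value of 11.05 in irradiated liver and 10.89 in control liver, a difference of 0.16 or 1.12-fold. At least as far from 0 were 33.2% of expressed genes, and 20.9% of the 802 whose mean level was within 0.5 of that of Ccng1. The spread of differences was narrower at this level than over all expressed genes, so both shares are given for the 3 brightest targets.

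The sestrins Sesn1 and Sesn2 and the Akt inhibitor gene Phlda3 restrain growth signalling, and Zmat3 encodes an RNA-binding zinc finger protein that acts on splicing and mRNA stability. Sesn1 had a value of 8.46 in irradiated liver and 8.50 in control liver, a difference of -0.03. Sesn2, which encodes a leucine sensor that inhibits mTORC1, had 7.04 in irradiated liver and 6.91 in control liver, a difference of 0.14 or 1.10-fold. The difference of the paralog Sesn2 exceeded that of Sesn1 by 0.172, close to the median gap between probe sets of 1 gene. Phlda3, whose product competes with Akt for membrane lipids, had 7.28 in irradiated liver and 7.20 in control liver, a difference of 0.08 or 1.06-fold. Zmat3 had 7.44 in irradiated liver and 7.29 in control liver, a difference of 0.15 or 1.11-fold. Of expressed genes, 83.0% were at least as far from 0 as Sesn1, 38.4% as Sesn2, 61.5% as Phlda3 and 33.8% as Zmat3. These 4 therefore lay in the body of the distribution, 3 of them above 0.

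The remaining 4 act in cell death, autophagy or adhesion, and they held the extremes in both directions. Trp53inp1 encodes a stress protein that promotes p53 phosphorylation and autophagy. It had a value of 10.31 in irradiated liver and 10.10 in control liver, a difference of 0.21 or 1.15-fold, the highest among the 9. At least as far from 0 were 22.0% of expressed genes and 15.2% of the 1266 at a like level. Perp encodes a membrane protein of desmosomes that p53 induces in apoptosis and p63 in epithelia. It had 10.69 in irradiated liver and 10.93 in control liver, a difference of -0.24 or 0.847-fold, the lowest among the 9. At least as far from 0 were 16.6% of expressed genes and 11.3% of the 902 at a like level.

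Aen, a nuclease gene of p53-dependent apoptosis, had a value of 6.24 in irradiated liver and 6.38 in control liver, a difference of -0.15 or 0.904-fold. Its values were close to the floor, and 36.6% of expressed genes were at least as far from 0. Eda2r, which encodes a receptor for the ectodysplasin isoform EDA-A2, had 5.19 in irradiated liver and 4.93 in control liver. Both values were below the floor, so its difference of 0.26 is listed but not counted. The ligand gene Eda had 6.77 in irradiated liver and 6.89 in control liver, a difference of -0.12.

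**Figure D2:**
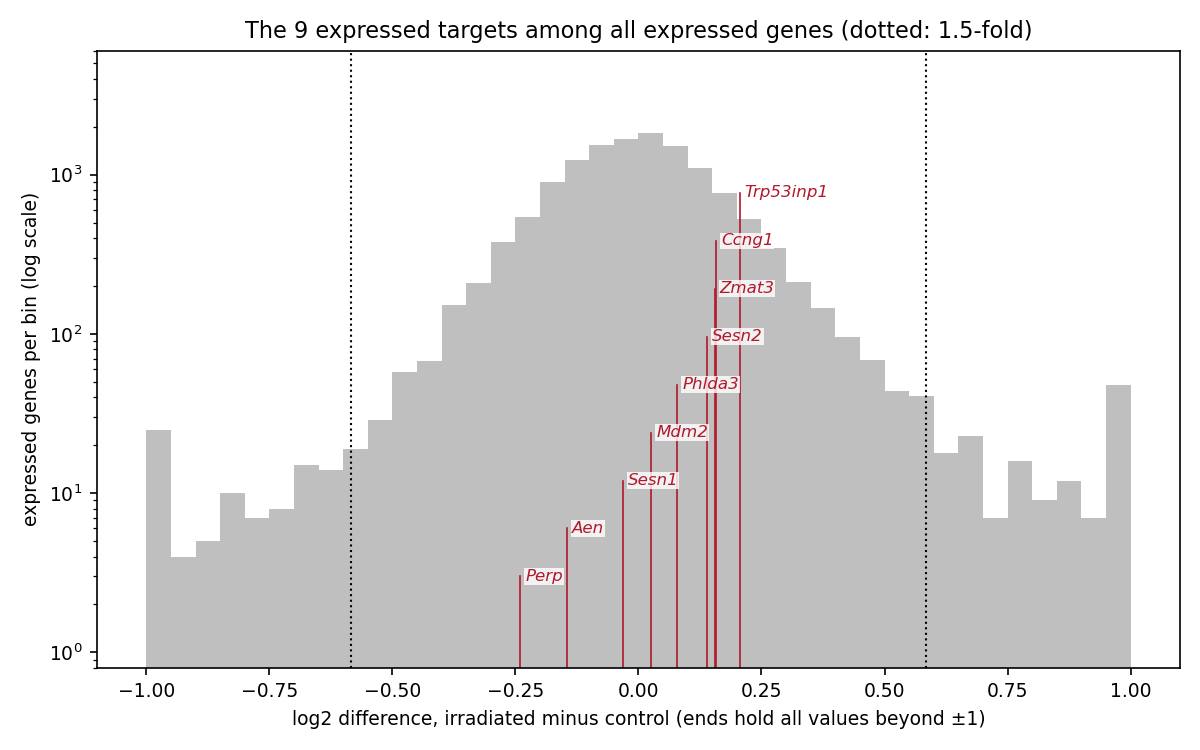
Distribution of log2 differences, irradiated minus control (horizontal axis), over 13689 expressed genes in bins of equal width (grey, counts on a log axis), with the 9 expressed targets as labelled red lines whose height has no meaning; the end bins hold all values beyond ±1. All 9 lie between -0.24 and 0.21, inside the dotted lines at 1.5-fold, with Perp at the left end and Trp53inp1 at the right.

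Among further p53 targets, a few genes stood higher in irradiated liver, led by Cdkn1a. From a list of 50 further targets, 46 were measured and 42 expressed. The list was chosen with earlier results of these data known, so its counts are no independent evidence. Of these 42, 5 were at least 1.5-fold higher and 0 were as much lower, against 1.14% and 0.65% of all expressed genes. The list's median was 0.03, so most of its genes lay near 0, with 23 above and 19 below. The 5 were Cdkn1a, Btg2, Plk3, Ddit4 and Bcl6. Ddit4 and Bcl6 were close to the threshold, and the count was 3 without them when each array was centred on its median (0.58 and 0.57) or when an offset of 32 was added on the linear scale (0.51 and 0.55). Cdkn1a, the p21 inhibitor of cyclin-dependent kinases, had a value of 8.87 in irradiated liver and 7.16 in control liver, a difference of 1.71 or 3.26-fold. That difference exceeded the one of Trp53inp1 by 1.501.

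Btg2, an antiproliferative cofactor gene, had a value of 10.29 in irradiated liver and 9.23 in control liver (difference 1.05). The stress kinase gene Plk3 had 11.53 in irradiated liver and 10.84 in control liver (0.68). Ddit4, a stress-induced inhibitor of mTORC1, had 7.91 in irradiated liver and 7.31 in control liver (0.60), and the transcriptional repressor gene Bcl6 had 9.16 in irradiated liver and 8.57 in control liver (0.59). At the low end of the list were the carbonyl reductase gene Dcxr at -0.34, the small GTPase gene Rap2b at -0.21 and the glutamate cyclase gene Dglucy at -0.18. Whether the 10 targets and this list differ was not tested.

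**Figure D3:**
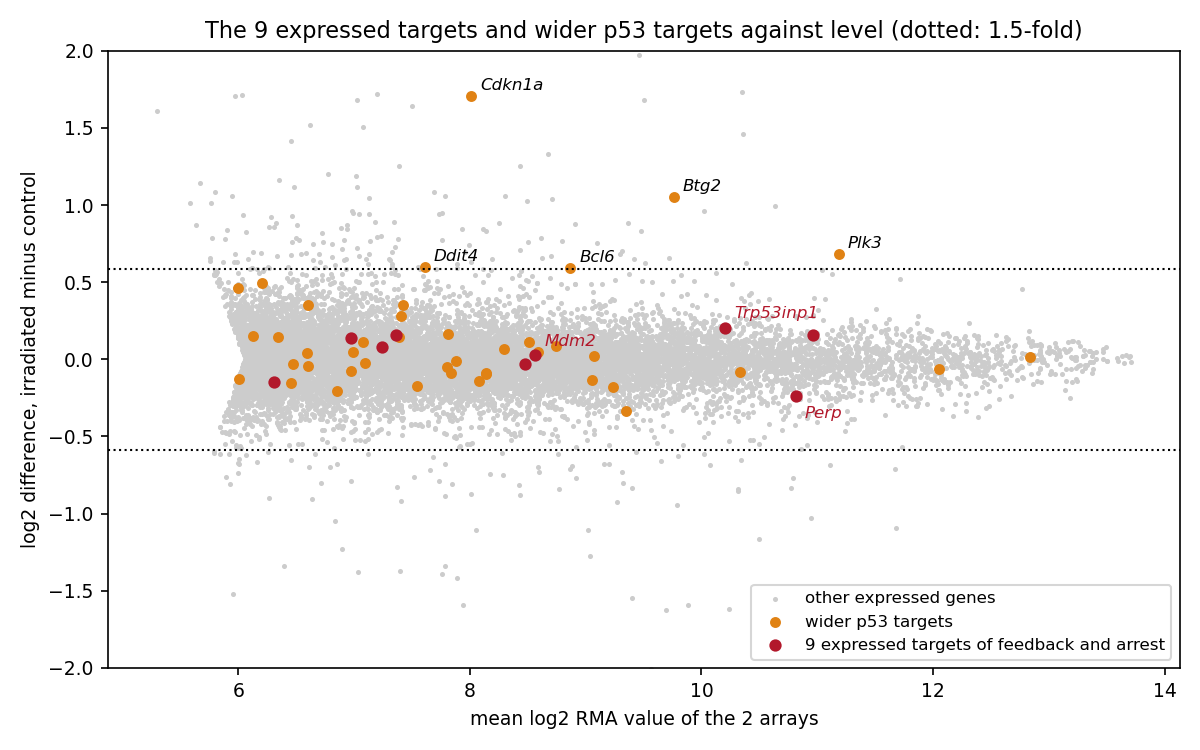
Log2 difference, irradiated minus control (vertical axis), against the mean log2 RMA value of both arrays (horizontal axis) for expressed genes (grey), the wider p53 targets (orange) and the 9 expressed targets of feedback and arrest (red). The 5 labelled orange points lie on or above the upper dotted line at 1.5-fold, led by Cdkn1a at 1.71, while all red points lie between the lines; 15 genes beyond ±2 are outside the axis.

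The genes that act on p53 itself had a median difference near 0. Of a list of 38, 35 were measured and 31 expressed, and their median was -0.01. In either direction 0 differed by 0.32 log2 units, against 4.65% of all expressed genes higher and 3.75% lower. With shares this small, a count of 0 is near the background and is not a result about the list. Mdm4, the partner of Mdm2 that blocks p53 activity, had a value of 8.77 in irradiated liver and 8.86 in control liver, a difference of -0.09. The damage kinase gene Atm was at 0.22, its relative Atr at -0.11, and the chromatin reader gene Trp53bp1 at -0.12. The methyltransferase gene Setd7 was highest at 0.25, Trp53bp2, whose product binds p53 and favours apoptosis, stood at 0.14, and Daxx, encoding a histone chaperone that binds Mdm2, was lowest at -0.13. Trp53 itself was in the list but not among the 35 measured, since no probe set was annotated with that symbol alone.

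Paralogs of the 10 genes had a median of -0.00 over 15 expressed of 17. At least 1.5-fold different were 0, against 1.14% of all expressed genes higher and 0.65% lower, so this count is near the background. Phlda1, a stress-responsive relative of Phlda3, had a value of 10.19 in irradiated liver and 9.68 in control liver, a difference of 0.50 that fell short of 1.5-fold. Ccng2, the cyclin G2 gene, was at 0.29, the autophagy gene Trp53inp2 at 0.27 and the third sestrin gene Sesn3 at 0.16. Lowest were the nuclease gene Isg20l2 at -0.20, the receptor gene Tnfrsf19 at -0.15 and the ectodysplasin receptor gene Edar at -0.10. Edar stood at the floor, with 6.00 in irradiated liver, below it, and 6.10 in control liver, above it.

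Downstream of the sestrins, genes of AMPK, GATOR and mTORC1 had a median of 0.00 over 29 expressed of 31. Of these, 0 differed by 0.32 log2 units, against 4.65% of all expressed genes higher and 3.75% lower, so this count is near the background. The AMPK subunit genes Prkaa2 and Prkab2 stood at 0.25 and 0.16 and the Rag GTPase gene Rragd at 0.16. Tsc1, a brake on mTORC1, was at -0.27, the autophagy kinase gene Ulk1 at -0.22 and the GATOR2 gene Wdr24 at -0.19. Other partners of the 10 genes had a median of 0.01 over 17 expressed of 20. Again 0 differed by 0.32 log2 units, against the same 4.65% and 3.75%, and this count too is near the background. Among them the PP2A subunit genes Ppp2r5d and Ppp2r5e, of the family that cyclin G1 binds, were both at 0.18, and Akt1, which encodes the kinase that Phlda3 inhibits, was at 0.14. The autophagy genes Gabarapl1 and Map1lc3b, whose family binds Trp53inp1, were at -0.18 and -0.17.

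Sestrin genes also receive inputs other than p53, Sesn2 from the integrated stress response and Sesn1 and Sesn3 from FoxO factors. The 13 expressed stress response genes had a median of 0.08. At least 1.5-fold higher were 4 and as much lower 0, against 1.14% and 0.65% of all expressed genes. The 4 were the transcription factor gene Atf3 at 1.03, the stress cofactor gene Nupr1 at 0.65, the asparagine synthetase gene Asns at 0.61 and the serine synthesis gene Psat1 at 0.59. Psat1 was below the floor in control liver and 1.28-fold higher against the floor, so it counted as expressed only through the irradiated array. With the offset of 32, Asns (0.52), Nupr1 (0.53) and Psat1 (0.41) fell short of 1.5-fold, and Atf3 (0.94) did not. Psat1 (0.57) also fell short with arrays centred on their medians. Atf4, the central factor of this response, was at -0.06, and its targets Trib3 and Fgf21 were at -0.21 and -0.16. FoxO genes had a median of -0.14 over 13 expressed, with 3 above 0, against 48.5% of all expressed genes. The FoxO target Depp1 had 8.63 in irradiated liver and 10.17 in control liver, a difference of -1.55, while Txnip, an inhibitor of thioredoxin, was at -0.47 and the growth factor binding protein gene Igfbp1 at -0.42. Foxo1 itself was at 0.04 and Pck1, for a gluconeogenic enzyme, at 0.06. Bcl6, counted above among p53 targets, is also in this list.

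Perp belongs to the desmosome, and most of the desmosome and keratin genes listed with it had the opposite sign. Perp stood at -0.24, beside a median of 0.12 over the 13 expressed genes of 21. Of these 13, 11 were above 0, against 48.5% of all expressed genes. Ppl, the periplakin gene, had a value of 8.36 in irradiated liver and 7.63 in control liver, a difference of 0.74. It was the 1 gene of this list past 1.5-fold, against 1.14% of all expressed genes higher and 0.65% lower. The simple epithelial keratin gene Krt18 was at 0.40 and the desmoplakin gene Dsp at 0.29, while Evpl, for envoplakin, was at -0.14 and the desmocollin gene Dsc2 at -0.08. Whether Perp differs from this list was not tested.

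Markers of bile duct and simple epithelium, a cell type that makes desmosomes, were higher on the irradiated array. All 10 expressed markers of 13 measured were above 0, against 48.5% of all expressed genes. At least 1.5-fold higher were 8 of the 10, against 1.14% of all expressed genes. Summed on the linear scale, the values of all 13 measured were 2550 array units in irradiated liver and 1032 in control liver. The 8 ran from the transcription factor gene Ehf (0.59, and 1.26-fold against the floor) through Prom1 (0.69), Epcam (0.75), Elf3 (1.06), Anxa13 (1.12) and Krt19 (1.20) to Cd24a (2.50) and Muc1 (2.62). Elf3 was 1.33-fold higher against the floor. Ehf and Elf3 were below the floor in control liver, so both counted as expressed only through the irradiated array. With the offset of 32, Ehf, Epcam and Prom1 fell short of 1.5-fold, and with arrays centred on their medians Ehf did. Smooth muscle markers were above 0 in 9 of 9 and at least 1.5-fold higher in 6, against the same 48.5% and 1.14%. The 6 were Tagln, Actg2, Myl9, Des, Acta2 and Cnn1, and Tagln fell short in both of those settings. The sums over the 9 were 3411 array units in irradiated liver and 1494 in control liver. The part of these 2 marker lists in the values of the 10 targets was not tested.

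Hepatocyte markers, which check the labelled tissue, were expressed in 12 of 12 measured, with a median of -0.00 and sums of 120274 array units in irradiated liver and 120567 in control liver. Alb, the albumin gene, had 13.70 in irradiated liver and 13.68 in control liver. The counts past 1.5-fold that follow stand beside 1.14% of all expressed genes higher and 0.65% lower. Pancreas acinar genes had a median of 0.06 over 6 expressed markers, 3 above 0 and 3 below, the lowest at -0.28, and 2 were past 1.5-fold, Ctrb1 at 2.65 and Reg1, below the floor in control liver and 4.36-fold higher against it. Stratified epithelium had 3 of 9 measured markers expressed, with Lor at 0.60 and Sfn, the marker with the highest mean, at 0.25. Stellate cell (0.10 over 12), endothelial (0.00 over 13) and Kupffer cell markers (0.14 over 13) had 1, 1 and 0 genes past 1.5-fold, the first being Des and the second Cd34 at 0.60. Their brightest markers were Dcn at 0.14, Clec4g at 0.00 and Vsig4 at 0.40. B cell (-0.05 over 5), T and NK cell (-0.04 over 6), neutrophil (0.16 over 2) and erythroid markers (-0.05 over 2) had 0, and their brightest markers were Bank1 at 0.01, Nkg7 at -0.08, Mmp9 at 0.00 and Klf1 at -0.29.

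**Figure D4:**
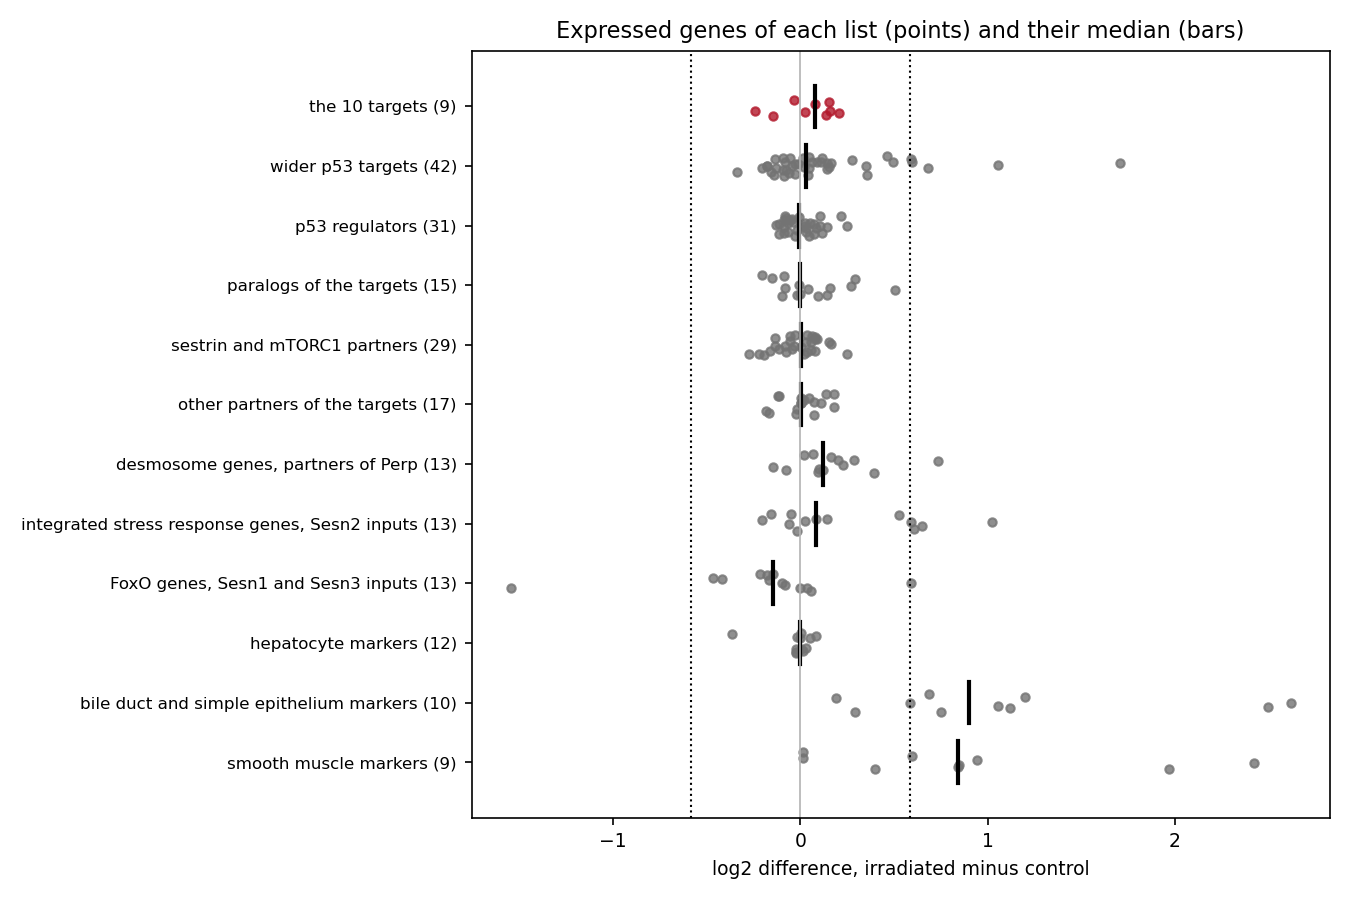
Log2 difference, irradiated minus control (horizontal axis), of every expressed gene of each list (points, number of expressed genes in brackets) with the list median as a black bar and 1.5-fold as dotted lines. The 10 targets (red, 9 expressed) lie between -0.24 and 0.21 around a median of 0.08, whereas bile duct and smooth muscle markers extend beyond 2.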

How the data were processed

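Liver RNA of 1 irradiated and 1 control sample was labelled from 300 ng of total RNA and hybridized to Affymetrix whole-transcript arrays, per the labels' protocols. The deposited log2 values, 41345 probe sets per array, were made by the authors with RMA in Affymetrix Expression Console 1.3.1, per the submitters' processing notes. RMA makes the arrays alike in distribution, so a difference in total RNA per cell cannot be seen. Scanner intensities, detection calls and the annotation's genome build are not given in the sources used here.

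Genes were named from GEO's platform annotation, which can be old: 23521 probe sets had 1 symbol, 1814 several and 16010 none. Differences, counts and motif matches were computed in Python 3.11.15 with pandas 2.3.3. The steps were tested on simulated data. No p-value was computed, since each group had 1 array, and the number of arrays limits the precision. The planned measure for all lists was the log2 difference with counts at 1.5-fold. From each pathway list the text names every expressed gene past 1.5-fold and the 3 highest and 3 lowest on each side of 0. From each marker list it names those past 1.5-fold, and the marker with the highest mean. The members and lists were chosen with earlier results of these data known. Alternatives changed the scaling, the probe set choice, the floor, an offset and the fold. The share of genes at a like level was added after the data had been seen.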

Additional observations from a re-analysis of the deposited data

How the results depend on the processing

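All values rest on 2 arrays, and no alternative adds a replicate. No paired analysis was possible because there was a single array per group. The median over the 10 targets ran from 0.0262 with the floor at the 75th percentile, where 5 of them were counted and 3 were above 0, to 0.1092 with no floor. Under the other scalings and choices the 9 expressed targets kept their signs. Mdm2 lay between 0.01 and 0.05, Sesn1 between -0.05 and -0.01, Trp53inp1 between 0.19 and 0.21 and Perp between -0.26 and -0.24. Eda2r became 0.135 with an offset of 32 and 0 when low values were raised to the floor, as that setting requires. Counts of the targets at 1.5-fold were 0 in each direction under every alternative, and at 2-fold and 0.32 log2 units too. Of all expressed genes, 95 were 1.5-fold higher with the offset, 70 with the floor at the 75th percentile and 272 with no floor, against 156. The lower ones numbered 197 with no floor, against 89. At 2-fold 44 genes were higher and 25 lower, and at 0.32 log2 units 637 and 514. Cdkn1a was at 1.51 with the offset. In checks added after seeing the data, 7 of the 29 named genes past 1.5-fold fell short of it with arrays centred on their medians (Bcl6, Cd34, Ddit4, Ehf, Lor, Psat1 and Tagln), and 11 with the offset, these and Asns, Epcam, Nupr1 and Prom1. The median of the p53 regulators changed sign under loess scaling (0.0025) and with probe sets of several symbols (0.0221), and both values are near 0.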

Other observations

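Zmat3 had a further probe set, which the annotation shares with the gene 4930429B21Rik. It had a value of 5.95 in irradiated liver and 5.60 in control liver, a difference of 0.35, with both values below the floor. The same sign was seen in the probe set that carries Zmat3 alone, at 0.15.

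The p53 half-site was also searched in promoter windows of the wider p53 targets. It was present for 10 of 38 genes with a window, and pairs with up to 1 mismatch for 5 of the 38, against 9.55% and 1.24% of all genes with a window. Pairs without mismatch occurred for 1 of the 38, against 0.0740% of all. The wider list was assembled from known p53 targets, so a higher share there is no independent evidence, and binding was not measured.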
